A study of Homo sapiens with 6 samples.

Results

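RNA levels of 45 genes of ribosome biogenesis and the nucleolus were compared in TOV21G, an established human cell line of ovarian clear cell carcinoma. The genes are a named list of factors for rRNA transcription, rRNA processing and ribosome assembly, and were found by symbol in a count table of 42656 rows. All 45 were in the table and all 45 passed the filter on low counts. The shMEX3A arm carried a short hairpin RNA against MEX3A, which codes for an RNA-binding protein, and its genotype label reads MEX3A knockdown. The shCtrl arm carried a scrambled hairpin and has the genotype label WT. Both arms were transduced with lentivirus at a multiplicity of infection of 50, and RNA was taken on day 3. Each arm has 3 libraries, made with 1 hairpin in 1 cell line, so an effect of this hairpin on other transcripts cannot be told apart from an effect of losing MEX3A. Whether the 3 replicates of each arm are separate cultures is not in the labels, and p-values therefore measure the spread between these libraries, which may be technical.

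Library totals ran from 34662635 to 48228216 counts. MEX3A itself stood at 20.9 ± 1.31 CPM in shMEX3A and 69.0 ± 1.54 CPM in shCtrl (SD, n = 3 each), where CPM is the count relative to a TMM-scaled library size (log2 fold change -1.72, SE 0.046, edgeR adjusted p = 1.52e-28). Among markers of clear cell carcinoma, PAX8 averaged 294 CPM in shMEX3A and 192 CPM in shCtrl, and ANXA4 averaged 214 CPM in shMEX3A and 652 CPM in shCtrl, whereas NAPSA was under 1 CPM in both arms. Markers of other cells were near 0, with 0 counts of CD3E in every library and at most 2 of PTPRC, 4 of ALB, 9 of VWF and 23 of PECAM1. Mitochondrially encoded mRNA took 3.21% ± 0.129 of counts in shMEX3A and 1.60% ± 0.0580 in shCtrl. With every gene of the mitochondrial chromosome left out of the fit, not only its mRNAs, the calls among the 45 genes were again 5 higher and 29 lower.

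Ribosomes are built in the nucleolus, where RNA polymerase I transcribes a long precursor of most ribosomal RNA. Small nucleolar ribonucleoproteins modify that precursor, the small-subunit processome folds and cuts it, and further factors carry the resulting small-subunit and large-subunit particles through maturation and export. The genes of this system are highly expressed in growing cells, and many of them are known targets of the transcription factor MYC.

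Most ribosome biogenesis genes were lower in shMEX3A, by modest amounts. At an edgeR adjusted p of 0.05, 29 of the 45 fell, 5 rose and 11 did not pass. That is 64.4% lower and 11.1% higher, beside 35.6% lower and 34.0% higher, or 69.7% in either direction, over all 15679 genes tested. The median log2 fold change of the 45 was -0.18, with an interquartile range of -0.34 to -0.06, and that of all tested genes was -0.01. The sizes were small for this comparison. The median absolute log2 fold change was 0.21 for the 45 genes and 0.35 for all tested genes. At least 1.5-fold changes were found for 1 gene that rose, POLR1A, and 4 that fell, NCL, NPM1, RRS1 and BRIX1, where the share over all tested genes was 14.8% higher and 13.2% lower. The 3 libraries of shMEX3A lay wholly below those of shCtrl for 31 of the 45 genes and wholly above for 5, with 36.9% below and 35.4% above over all tested genes. TMM takes most genes as unchanged, so every rise or fall is relative to the other genes, and less RNA per cell cannot be told apart from fewer cells with such RNA.

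**Figure D1:**
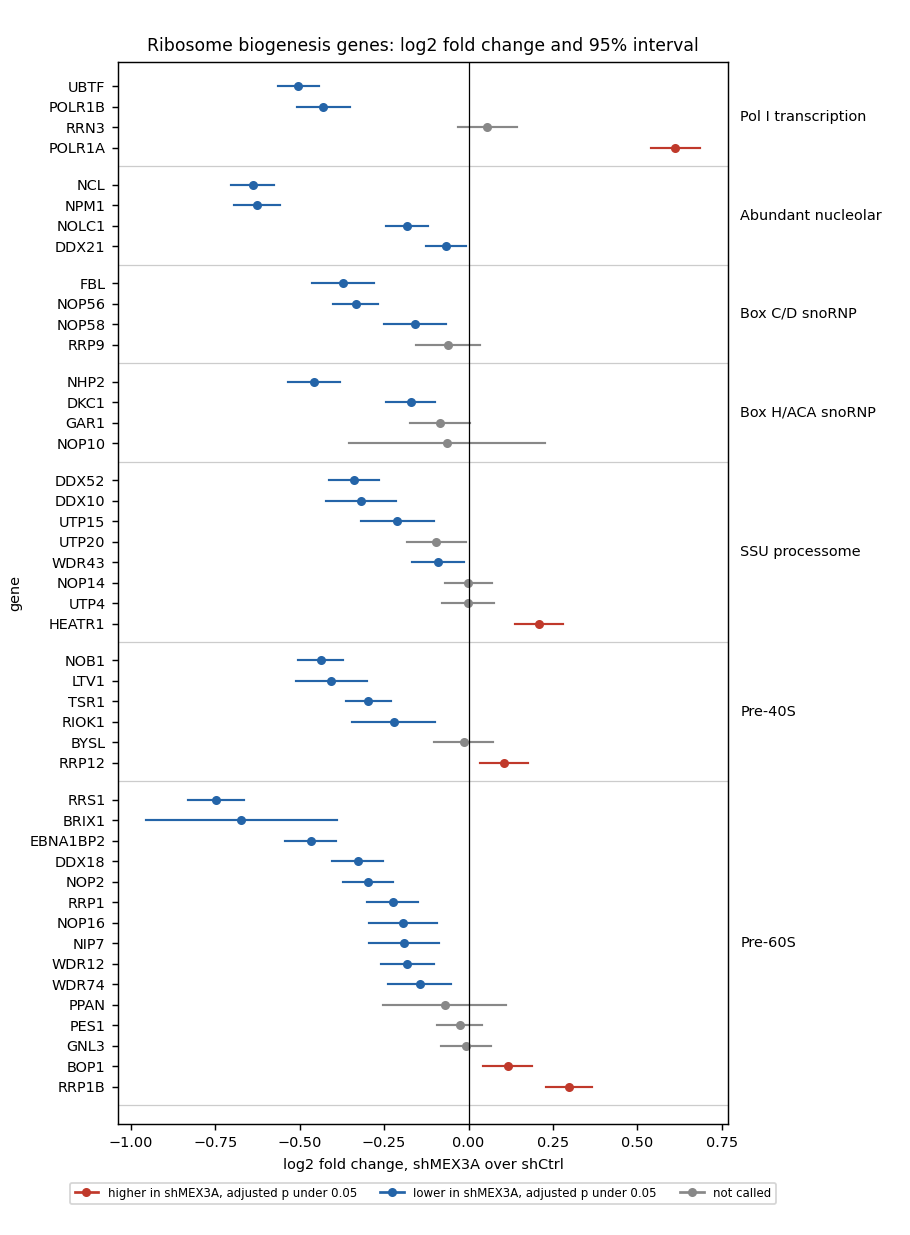
Log2 fold change (shMEX3A over shCtrl, x axis) of each of the 45 genes with its 95% interval, ordered by role down the y axis and coloured by call. The 29 genes called lower span every role, and the 5 called higher are POLR1A, HEATR1, RRP12, BOP1 and RRP1B.

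**Figure D2:**
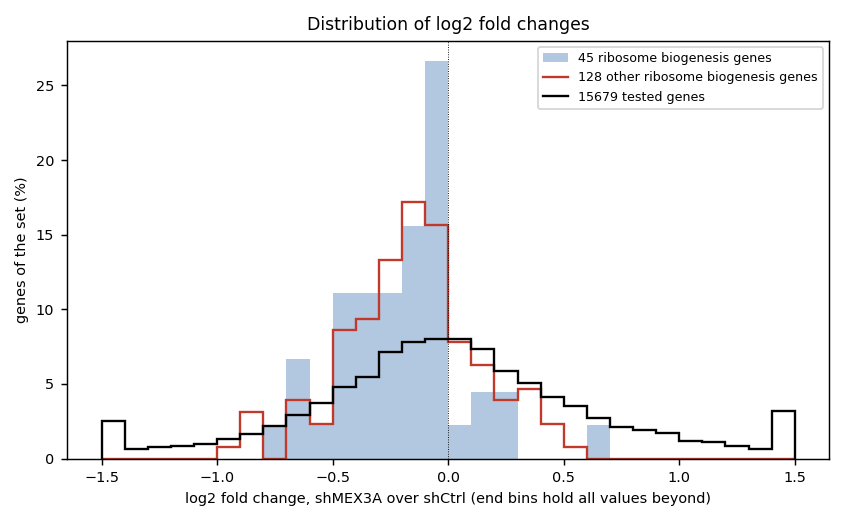
Share of genes (y axis, percent of each set) by log2 fold change (x axis, shMEX3A over shCtrl) for the 45 genes, the 128 other ribosome biogenesis genes and the 15679 tested genes, with end bins holding all values beyond. Both ribosome biogenesis sets have negative medians, -0.18 for the 45 genes and -0.16 for the 128, and all tested genes have -0.01.

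Libraries of an arm lay close together for these genes. The median coefficient of variation within an arm was 2.59% in shMEX3A and 2.16% in shCtrl, and the highest values were 18.0% for BRIX1 in shMEX3A and 13.2% for NOP10 in shCtrl. Of the 34 calls, 31 were made again in all 6 fits that left out a library, and the other 3 were DDX21, WDR43 and RRP12. Ribosome biogenesis genes differ widely in level. Per kilobase of exon, NPM1 had the highest level of the 45 at 179 CPM per kb over all 6 libraries, rank 131 of 14480 tested genes with a length, and was followed by NCL at 135, NOP10 at 125 and FBL at 114. BRIX1 had the lowest at 0.608 CPM per kb, rank 11898.

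The promoters of the 45 genes were examined for short motifs, since CACGTG, the E-box, is the core bound by MYC and its partner MAX. RefSeq promoter windows of GRCh38.p14, which hold 250 bases before and 50 after a transcription start, were at hand for 37 of the 45 genes. CACGTG, a palindrome that reads the same on both strands, was present in 15 of those 37 genes (40.5%), in 32 of 109 other ribosome biogenesis genes (29.4%) and in 2396 of 27305 genes with a window (8.78%). The last set holds every gene with a window, tested here or not, so the shares are not compared among expressed genes alone. Each motif is given in capitals, with up to 12 bases on each side on the gene's strand. FBL, LTV1, NOP2 and EBNA1BP2 stand for genes with the motif that fell. UTP4, NOP14, PES1 and GNL3 stand for genes with the motif that did not pass the test. Relative to the start, the printed motif begins at 7 for FBL, 29 for LTV1, 36 for NOP2 and -237 for EBNA1BP2. It begins at -16 for UTP4, 16 for NOP14, 14 for PES1 and 7 for GNL3. EBNA1BP2 has another CACGTG, at 43 in a different window, which is not printed. The coordinates are chr19:39846356-39846385 (minus strand) for FBL, chr6:143843354-143843383 (plus) for LTV1, chr12:6568242-6568268 (minus) for NOP2, chr1:43172790-43172819 (minus) for EBNA1BP2, chr16:69132621-69132650 (plus) for UTP4, chr4:2963374-2963403 (minus) for NOP14, chr22:30591880-30591909 (minus) for PES1 and chr3:52686026-52686055 (plus) for GNL3.
FBL: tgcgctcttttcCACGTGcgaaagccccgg
LTV1: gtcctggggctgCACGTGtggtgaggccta
NOP2: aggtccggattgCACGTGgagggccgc
EBNA1BP2: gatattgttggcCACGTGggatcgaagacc
UTP4: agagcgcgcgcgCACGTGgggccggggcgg
NOP14: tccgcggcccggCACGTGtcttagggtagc
PES1: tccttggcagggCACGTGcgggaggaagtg
GNL3: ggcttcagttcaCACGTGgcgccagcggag

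Genes with an E-box in the window stood nearer to 0 than the rest of the list. Of the 15 with the motif, 0 rose, 6 fell and 9 did not pass the edgeR test, and their median log2 fold change was -0.07, with a range of -0.47 to -0.00. Of the 22 genes whose windows lacked it, 2 rose, 18 fell and 2 did not pass, with a median of -0.22. The 8 genes with no window in the table had 3 rises, 5 falls and a median of -0.17. Over all tested genes 35.6% fell and 34.0% rose. Among genes with the motif, the falls of DDX21 and WDR43 did not pass with GC and length offsets. RRP9 and PES1 were then called lower and GNL3 higher. Among windows without it, UTP15 and RIOK1 lost their calls with the offsets, and RRN3 was called higher. Among the 128 other ribosome biogenesis genes the medians were -0.11 for the 32 with the motif and -0.16 for the 77 without, and the falls were 17 of 32 and 44 of 77. With GC and length offsets these 2 medians were -0.067 and -0.078. The split was made after the values were seen and was not tested. Of the other motifs searched on both strands, CCGGAAG, an ETS core, was in 45.9% of the 37 genes and 12.2% of all genes with a window, and CTTCCG, which lies within the reverse complement of that core, in 51.4% and 22.6%. CCAAT was in 43.2% of the 37 genes and 39.7% of all, TATAAA in 5.41% and 14.0%, the NRF1 palindrome in 8.11% and 1.52%, and a palindrome centred on CGCG in 2.70% and 0.505%. MYC mRNA averaged 124 ± 2.40 CPM in shMEX3A and 151 ± 2.82 CPM in shCtrl (log2 fold change -0.29, SE 0.032, edgeR adjusted p = 4.85e-10), and MAX was lower as well (-0.26, edgeR adjusted p = 1.55e-06). The part of either in these values was not tested.

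**Figure D3:**
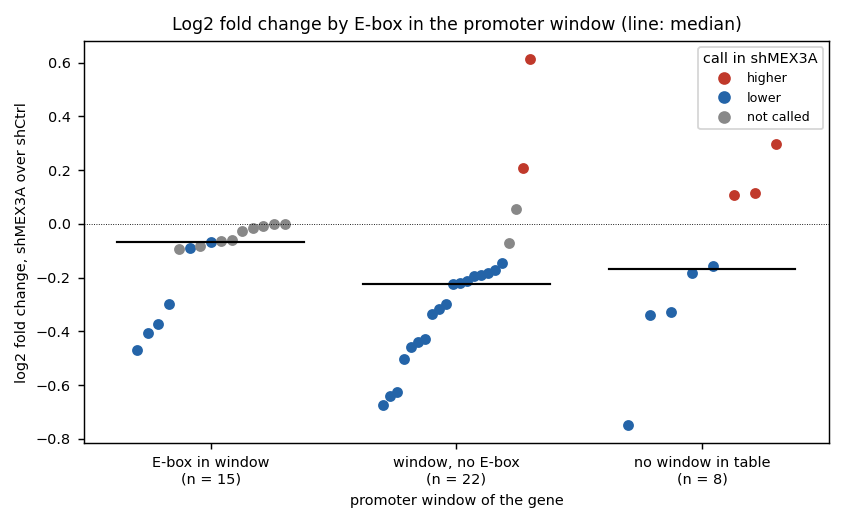
Log2 fold change (y axis, shMEX3A over shCtrl) of the 45 genes, split by whether CACGTG was in the RefSeq promoter window (x axis), with a line at each median. The 15 genes with the motif have a median of -0.07, the 22 with a window but no motif -0.22, and the 8 with no window -0.17.

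In the RNA polymerase I machinery, the largest subunit and the promoter-binding factor moved in opposite directions. POLR1A, the largest catalytic subunit (GRCh38, GENCODE 29, chromosome 2 from 86020216 to 86106155, minus strand), had 251, 249 and 241 CPM in the shMEX3A libraries and 152, 172 and 162 CPM in the shCtrl libraries. Every shMEX3A library was above every shCtrl library, and the gene rose 1.53-fold (log2 fold change 0.61, SE 0.036, edgeR adjusted p = 3.29e-15). UBTF, which binds rDNA promoters and keeps the repeats open (chromosome 17 from 44205033 to 44221626, minus strand), had 201, 206 and 203 CPM in shMEX3A and 288, 295 and 283 CPM in shCtrl. The arms did not overlap, and UBTF fell 1.42-fold (log2 fold change -0.50, SE 0.030, edgeR adjusted p = 1.15e-17). POLR1B, the second-largest subunit, fell by 0.43 on the log2 scale, with 52.7 ± 0.759 CPM in shMEX3A and 71.1 ± 2.51 CPM in shCtrl (SD, n = 3 each). RRN3, the factor that brings the polymerase to the promoter, had 50.7 ± 2.20 CPM in shMEX3A and 48.8 ± 2.16 CPM in shCtrl and did not pass (log2 fold change 0.06, 95% interval -0.03 to 0.14, edgeR adjusted p = 0.256). With offsets for GC content and length its value was 0.19 and passed (edgeR adjusted p = 6.58e-05). The counts on 3 RRN3 pseudogene rows came to between 19.6% and 25.9% of those of RRN3 in shMEX3A and between 11.4% and 18.8% in shCtrl, so its reads may be split between copies.

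Among the abundant nucleolar proteins, NCL and NPM1 had the largest differences in CPM of the 45 genes. NCL, or nucleolin, which binds nascent pre-rRNA (chromosome 2 from 231453531 to 231483641, minus strand), had 733, 759 and 695 CPM in shMEX3A and 1169, 1132 and 1108 CPM in shCtrl. NPM1, or nucleophosmin, a chaperone of the granular zone of the nucleolus (chromosome 5 from 171387116 to 171411137, plus strand), had 513, 568 and 532 CPM in shMEX3A and 857, 811 and 823 CPM in shCtrl. For both genes the highest shMEX3A library was below the lowest shCtrl library. NCL fell 1.56-fold (log2 fold change -0.64, SE 0.032, edgeR adjusted p = 1.35e-19) and NPM1 1.54-fold (-0.63, SE 0.033, edgeR adjusted p = 3.22e-17). The fall of NPM1 was smaller with offsets for GC content and length, at -0.40. NOLC1, a snoRNP chaperone also known as Nopp140, fell by 0.18 on the log2 scale, with 334 ± 12.9 CPM in shMEX3A and 379 ± 8.19 CPM in shCtrl. DDX21, a helicase that works on pre-rRNA and snoRNA, passed only narrowly, at 336 ± 7.02 CPM in shMEX3A and 352 ± 5.43 CPM in shCtrl (-0.07, edgeR adjusted p = 0.0456). DDX21 no longer passed when shCtrl replicate 2 (edgeR adjusted p = 0.158), replicate 1 of shMEX3A (0.0733) or replicate 3 of shMEX3A (0.213) was dropped, and with GC and length offsets its value was 0.037 (0.192).

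The box C/D snoRNP adds methyl groups to the sugars of rRNA. Of its 4 listed genes 3 fell, beside 35.6% of all tested genes. FBL, or fibrillarin, the methyltransferase (chromosome 19 from 39834458 to 39846414, minus strand), had 219, 219 and 213 CPM in shMEX3A and 304, 276 and 262 CPM in shCtrl. The shCtrl libraries spread more widely than those of shMEX3A but stayed above them, and FBL fell by 0.37 on the log2 scale (SE 0.043, edgeR adjusted p = 1.36e-06). NOP56, a core scaffold protein, had 105, 104 and 104 CPM in shMEX3A and 135, 131 and 129 CPM in shCtrl. Here too the arms were apart, and the log2 fold change was -0.33 (SE 0.033, edgeR adjusted p = 1.89e-11). NOP58, the other core scaffold protein and a close relative of NOP56, fell by only 0.16, with 33.0 ± 0.223 CPM in shMEX3A and 36.8 ± 0.380 CPM in shCtrl (edgeR adjusted p = 0.00242). With GC and length offsets NOP58 changed sign, to 0.089, and did not pass (edgeR adjusted p = 0.0629). RRP9, which binds the U3 snoRNA, stood at 33.4 ± 0.762 CPM in shMEX3A and 34.8 ± 0.954 CPM in shCtrl (-0.06, 95% interval -0.15 to 0.03, edgeR adjusted p = 0.253), and with the offsets at -0.13 it passed (0.00974).

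The box H/ACA snoRNP, which turns uridines of rRNA into pseudouridines, has 4 core proteins, and the list holds all of them. NHP2, which binds the guide RNA, had 88.6, 93.3 and 88.7 CPM in shMEX3A and 132, 119 and 121 CPM in shCtrl. The arms did not overlap, and NHP2 fell by 0.46 on the log2 scale (SE 0.038, edgeR adjusted p = 4.80e-13). DKC1, or dyskerin, the pseudouridine synthase, had 83.9, 85.1 and 81.2 CPM in shMEX3A and 95.2, 95.5 and 91.1 CPM in shCtrl. It too was lower in every shMEX3A library than in any shCtrl library, by less (-0.17, SE 0.036, edgeR adjusted p = 6.80e-05, and -0.10 with GC and length offsets). GAR1, the fourth core protein, stood at 39.7 ± 1.54 CPM in shMEX3A and 42.1 ± 0.594 CPM in shCtrl and did not pass (-0.08, edgeR adjusted p = 0.0856), nor did it with GC and length offsets, where its value was 0.088 (0.0575). NOP10, the smallest of the core proteins, had 66.7, 65.4 and 71.0 CPM in shMEX3A and 81.2, 65.6 and 64.6 CPM in shCtrl. Replicate 1 of shCtrl stood apart, the arms overlapped, and the interval was wide (-0.06, 95% interval -0.35 to 0.23, edgeR adjusted p = 0.637). Its value was 0.052 without that library and 0.059 with GC and length offsets, and it passed in neither.

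Genes of the small-subunit processome, which assembles on the pre-rRNA as it is made, were divided. There were 1 rise, 4 falls and 3 that did not pass, beside 34.0% higher and 35.6% lower over all tested genes. DDX52, a helicase, had 63.3, 66.3 and 64.7 CPM in shMEX3A and 81.8, 83.0 and 80.9 CPM in shCtrl. DDX10, another helicase, had 27.3, 28.5 and 27.2 CPM in shMEX3A and 36.7, 34.5 and 32.3 CPM in shCtrl. Both were apart between the arms and fell by similar amounts, DDX52 by 0.34 (SE 0.036, edgeR adjusted p = 1.60e-10) and DDX10 by 0.32 (SE 0.051, edgeR adjusted p = 1.02e-06) on the log2 scale. HEATR1, known in yeast as Utp10 and needed for rRNA transcription as well as processing, rose to 102 ± 1.54 CPM in shMEX3A, against 88.4 ± 1.79 CPM in shCtrl (0.21, edgeR adjusted p = 1.81e-06). NOP14, the most abundant of the 8 processome genes, had 106, 110 and 106 CPM in shMEX3A and 106, 109 and 106 CPM in shCtrl. Its libraries overlapped fully, with a log2 fold change of -0.00 and a 95% interval of -0.07 to 0.07 (edgeR adjusted p = 0.986).

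The UTP proteins sit in subcomplexes of the processome that join with the U3 snoRNP. UTP4 did not pass either, at 58.5 ± 1.40 CPM in shMEX3A and 58.5 ± 0.650 CPM in shCtrl, with a 95% interval of -0.08 to 0.08 for its log2 fold change (edgeR adjusted p = 0.993). UTP15 fell to 21.6 ± 0.522 CPM in shMEX3A, against 25.0 ± 0.418 CPM in shCtrl (-0.21, edgeR adjusted p = 6.72e-04), and did not pass with GC and length offsets (-0.10, 0.0953). UTP20 lay on the threshold at 41.7 ± 1.42 CPM in shMEX3A and 44.6 ± 1.46 CPM in shCtrl (-0.09, edgeR adjusted p = 0.0503), and passed without shCtrl replicate 3 (0.0237) or shMEX3A replicate 2 (0.0341). WDR43, the human counterpart of yeast Utp5, lay just within it at 63.1 ± 2.53 CPM in shMEX3A and 67.2 ± 0.279 CPM in shCtrl (-0.09, edgeR adjusted p = 0.0348). WDR43 did not pass when replicate 2 (0.0837) or 3 (0.0505) of shCtrl, or replicate 1 (0.119) or 3 (0.157) of shMEX3A, was dropped, and with GC and length offsets its value was 0.072 (edgeR adjusted p = 0.0685).

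The late factors of the small subunit mostly fell. Of the 6, 4 were lower and 1 higher, beside 35.6% lower and 34.0% higher over all tested genes. NOB1, the endonuclease that makes the final cut of the small-subunit rRNA, had 116, 121 and 112 CPM in shMEX3A and 158, 158 and 156 CPM in shCtrl. LTV1, which must leave the particle before it matures, had 26.3, 28.0 and 25.5 CPM in shMEX3A and 37.6, 34.8 and 33.5 CPM in shCtrl. The arms were apart for both, NOB1 by -0.44 (SE 0.033, edgeR adjusted p = 1.42e-14) and LTV1 by -0.41 (SE 0.052, edgeR adjusted p = 1.08e-08) on the log2 scale. With GC and length offsets the fall of LTV1 shrank to -0.16. TSR1, a GTPase-like protein that blocks early joining of the subunits, fell to 121 ± 3.39 CPM in shMEX3A, against 149 ± 3.09 CPM in shCtrl (-0.30, edgeR adjusted p = 3.50e-10). RIOK1, an atypical kinase, fell to 19.2 ± 1.38 CPM in shMEX3A, against 22.4 ± 1.22 CPM in shCtrl (-0.22, edgeR adjusted p = 0.00151), and did not pass with the offsets (-0.07, 0.309). RRP12, an export factor, was the gene that rose, with 112 ± 4.10 CPM in shMEX3A and 104 ± 1.81 CPM in shCtrl (0.11, edgeR adjusted p = 0.00714). That call was lost without shMEX3A replicate 1 (0.0777), and with the offsets RRP12 passed in the other direction (-0.090, edgeR adjusted p = 0.0141). BYSL, or bystin, stood at 42.8 ± 1.32 CPM in shMEX3A and 43.2 ± 0.934 CPM in shCtrl and did not pass (-0.01, edgeR adjusted p = 0.775).

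Of the 15 large-subunit factors, 10 fell, 2 rose and 3 did not pass, beside 35.6% lower and 34.0% higher over all tested genes. RRS1, which helps to bring the smallest ribosomal RNA into the large-subunit precursor, gave the largest fall of the 45 genes. It had 41.4, 40.9 and 41.5 CPM in shMEX3A and 65.5, 71.3 and 71.2 CPM in shCtrl. Every shMEX3A library was far below every shCtrl library, and RRS1 fell 1.68-fold (log2 fold change -0.75, SE 0.041, edgeR adjusted p = 8.17e-19). BRIX1, a factor of early large-subunit precursors, had 2.83, 2.08 and 2.12 CPM in shMEX3A and 3.80, 3.67 and 3.77 CPM in shCtrl. It was lower in all shMEX3A libraries but rested on only 72 to 166 counts a library, which gives a wide error (-0.67, SE 0.14, edgeR adjusted p = 5.39e-05, and -0.42 with GC and length offsets). EBNA1BP2, the human counterpart of yeast Ebp2 and a partner of RRS1 in yeast, fell to 96.1 ± 2.83 CPM in shMEX3A, against 133 ± 7.16 CPM in shCtrl (-0.47, edgeR adjusted p = 1.30e-13). DDX18, a helicase, fell to 70.4 ± 2.86 CPM in shMEX3A, against 88.4 ± 1.00 CPM in shCtrl (-0.33, edgeR adjusted p = 5.02e-10).

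RRP1 and RRP1B, human relatives of a single yeast gene, moved in opposite directions. RRP1B (chromosome 21 from 43659548 to 43696079, plus strand) had 184, 183 and 178 CPM in shMEX3A and 144, 156 and 144 CPM in shCtrl. The arms did not overlap, and RRP1B rose by 0.30 on the log2 scale (SE 0.034, edgeR adjusted p = 5.50e-10). RRP1, on the same chromosome from 43789513 to 43805293 on the plus strand, fell by 0.22, with 57.2 ± 0.749 CPM in shMEX3A and 66.9 ± 1.88 CPM in shCtrl (edgeR adjusted p = 1.93e-06, and -0.36 with GC and length offsets). Per kilobase of exon, RRP1B was at 31.5 CPM per kb in shMEX3A and 25.7 in shCtrl, and RRP1 at 13.5 in shMEX3A and 15.7 in shCtrl.

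The PeBoW complex of PES1, BOP1 and WDR12, which is needed to process the large-subunit precursor, did not move as a unit. WDR12 fell to 62.1 ± 2.92 CPM in shMEX3A, against 70.5 ± 0.883 CPM in shCtrl (-0.18, edgeR adjusted p = 7.54e-05, and -0.10 with GC and length offsets). BOP1 rose to 76.4 ± 1.04 CPM in shMEX3A, against 70.5 ± 0.670 CPM in shCtrl (0.12, edgeR adjusted p = 0.00432), a call lost with the offsets (0.02, 0.631). PES1 stood at 131 ± 3.27 CPM in shMEX3A and 133 ± 1.38 CPM in shCtrl (-0.03, edgeR adjusted p = 0.482), and was called lower with the offsets (-0.11, 9.37e-04). GNL3, or nucleostemin, a nucleolar GTPase, had 69.5 ± 1.54 CPM in shMEX3A and 69.9 ± 1.31 CPM in shCtrl (-0.01, 95% interval -0.08 to 0.07, edgeR adjusted p = 0.883). It was called higher with GC and length offsets (0.24, 8.80e-08). NOP2, an rRNA methyltransferase, fell by 0.30, NOP16 by 0.19, NIP7 by 0.19 and WDR74 by 0.14 on the log2 scale. PPAN was at 7.20 ± 0.711 CPM in shMEX3A and 7.51 ± 0.356 CPM in shCtrl and did not pass (-0.07, edgeR adjusted p = 0.497).

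**Figure D4:**
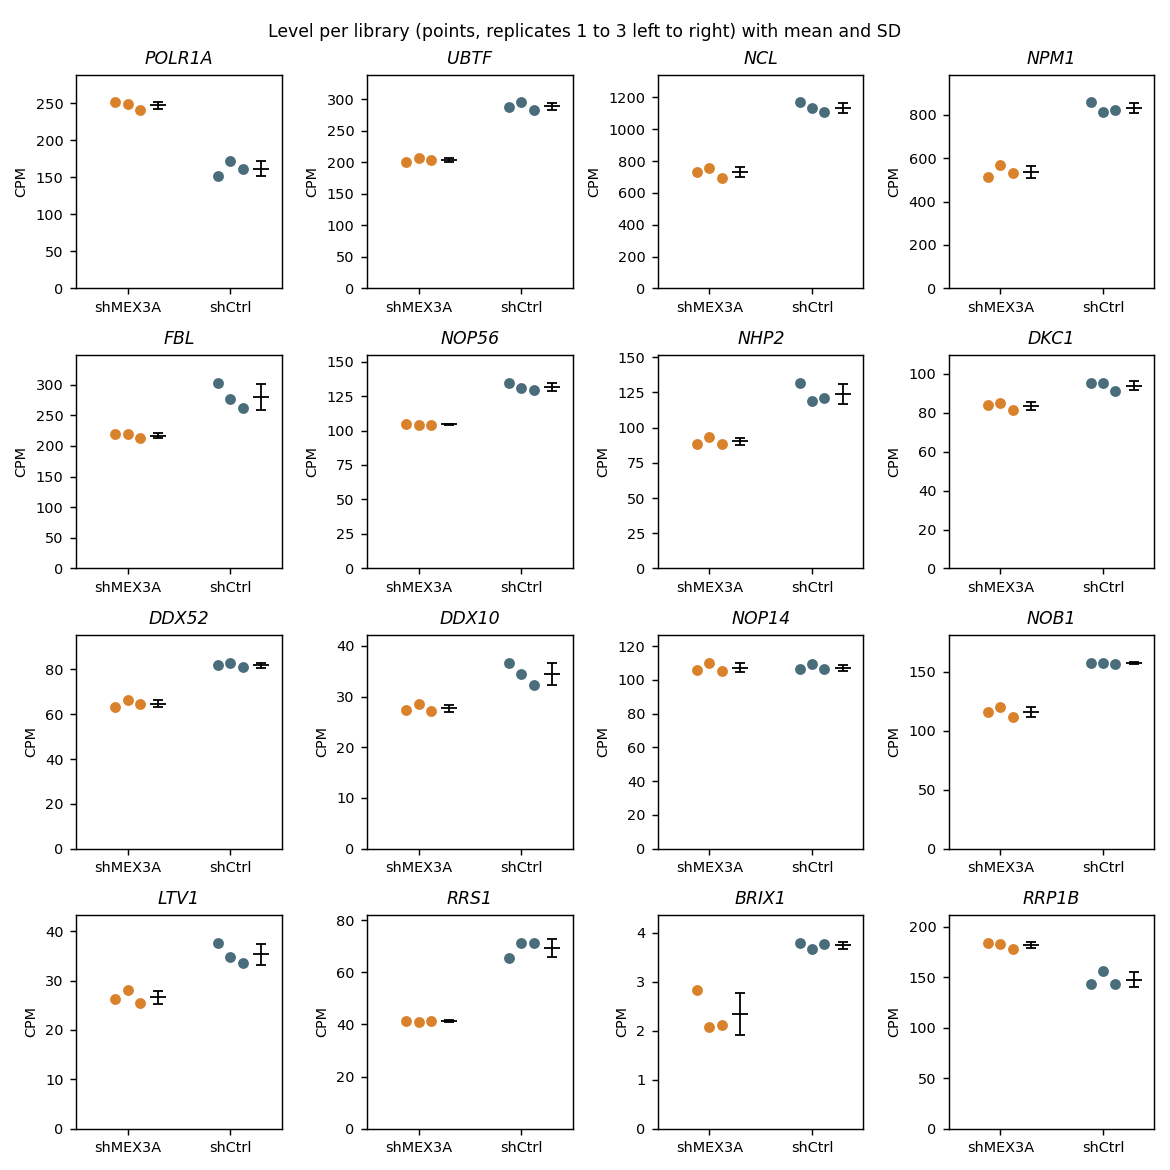
Level of 16 genes in each library (y axis, CPM from 0) in shMEX3A and shCtrl, with 1 point per library in the order of replicates 1 to 3 and the mean with SD beside them. POLR1A and RRP1B are above shCtrl in every shMEX3A library, NOP14 overlaps, and the other 13 genes are below.

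The wider ribosome biogenesis system was divided in a similar way. Of 128 other genes, all of which passed the low-count filter, 73 fell (57.0%), 23 rose (18.0%) and 32 did not pass, with a median log2 fold change of -0.16. With GC and length offsets 57 fell and 30 rose, and the median was -0.079. At least 1.5-fold falls were found for 11 of the 128 and such rises for 0. Over all 15679 tested genes 35.6% fell and 34.0% rose in the fit without offsets. At least 1.5-fold, 13.2% of all tested genes fell and 14.8% rose. By group, 25 fell and 11 rose of 43 further small-subunit factors, 29 and 8 of 49 large-subunit factors, 6 and 2 of 9 snoRNP factors, 8 and 1 of 15 exosome genes, and 5 and 1 of 12 genes of polymerase I. The exosome trims and degrades rRNA precursors. The largest falls were SURF6, RRP36 and C1D. SURF6, a nucleolar matrix protein of subunit assembly, was at 42.6 ± 0.874 CPM in shMEX3A and 79.8 ± 2.42 CPM in shCtrl (-0.91, SE 0.039, edgeR adjusted p = 3.69e-22). RRP36, of the early small-subunit precursor, was at 47.6 ± 2.16 CPM in shMEX3A and 86.6 ± 5.64 CPM in shCtrl (-0.86, edgeR adjusted p = 7.12e-16), and the exosome cofactor C1D at 5.24 ± 1.00 CPM in shMEX3A and 9.60 ± 0.485 CPM in shCtrl (-0.86, edgeR adjusted p = 9.27e-09). The largest rises were smaller. GNL3L, a GTPase related to GNL3, rose by 0.52 (edgeR adjusted p = 1.94e-15), NOL6 by 0.49 (3.82e-14, and 0.30 with GC and length offsets) and PDCD11, which carries rRNA-binding domains and is known in yeast as Rrp5, by 0.49 (3.76e-17).

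Other subunits of polymerase I were examined after their values were seen. POLR1E, POLR1D, POLR1F and POLR1C had log2 fold changes of -0.66, -0.44, -0.34 and -0.23 and were called lower, as POLR1B was, though POLR1C did not pass with GC and length offsets (-0.07, edgeR adjusted p = 0.186) and POLR1F was at -0.19. POLR1G (0.02) and POLR1H (-0.13) did not pass. POLR1A was thus the subunit called higher among the 8 measured. TAF1C, of the factor that selects the rDNA promoter, rose by 0.37, and by 0.14 with the offsets. The other TAF1 genes of the list, TAF1A (-0.16), TAF1B (-0.16) and TAF1D (-0.03), did not pass. In the complex of PELP1, WDR18 and TEX10, also looked at after the values were seen, PELP1 rose by 0.39 (0.22 with the offsets), WDR18 fell by 0.57 and TEX10 had 0.02 and did not pass.

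The summed level of the 45 genes was lower in shMEX3A in every library. It came to 5021, 5146 and 4958 CPM in shMEX3A and 6250, 6150 and 6056 CPM in shCtrl. The mean was 18.0% lower in shMEX3A, at 5042 ± 96.1 CPM, against 6152 ± 97.3 CPM in shCtrl (SD, n = 3 each). NCL and NPM1 made up much of the gap. They took 25.1% of the 45 genes' counts in shMEX3A and 32.0% in shCtrl, and without them the sum was 3775 CPM in shMEX3A and 4186 CPM in shCtrl, 9.82% lower in shMEX3A. No test was made on the sum, since the genes were chosen with results known.

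**Figure D5:**
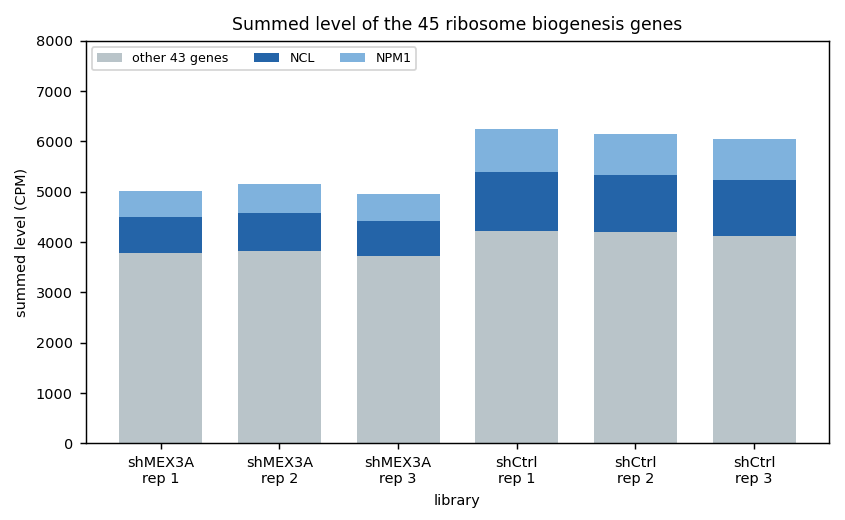
Summed level of the 45 genes (y axis, CPM from 0) in each library, shMEX3A left and shCtrl right, stacked by NCL, NPM1 and the other 43 genes. The shMEX3A bars reach 4958 to 5146 CPM, and the shCtrl bars reach 6056 to 6250 CPM.

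Several of these genes carry snoRNAs in their introns or overlap other genes. In GENCODE 29, 8 of them (NCL, NOP56, NOP58, DKC1, WDR43, TSR1, PPAN and GNL3) hold 23 named snoRNA genes on their strand. Of these hosts 6 fell and 2 did not pass, and 23 of the other 37 genes fell, where 35.6% of all tested genes fell. The snoRNAs themselves had at most 14 counts in any library, for SNORD110 within NOP56, and their levels cannot be read from these mRNA libraries. The strand setting of the counting is not given in the sources used here, so reads over shared exon bases cannot be assigned. PPAN shares 56.0% of its exon bases with the readthrough gene PPAN-P2RY11, whose row had 0 counts in every library. NOP2 shares 54.4% and LTV1 34.8% with other annotated genes on the same strand. HEATR1, which rose, shares 23.2% with LGALS8 on the opposite strand, which fell by 0.26. NHP2 shares 27.4% with RMND5B (log2 fold change -0.18), TSR1 20.7% with SRR (-0.60), NIP7 20.2% with COG8 (0.05, not called), and BRIX1 9.62% with RAD1 (-0.65). RRS1, with the largest fall, shares 11.4% with AC009879.2 on the same strand. On the opposite strand, EBNA1BP2 shares 18.8% with CFAP57 (-0.69) and NOB1 20.2% with AC092115.3. NCL, NPM1, POLR1A, FBL, RRP1 and RRP1B share none. Across the 45 genes Spearman's rho between GC content and log2 fold change was 0.13, and over 14480 tested genes it was 0.19. These genes share their libraries and are not independent replicates.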

How the data were processed

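The authors deposited 1 table of raw read counts per gene, whole numbers with a column per library. The tools named by the submitters' processing notes, with no role or order, are STAR, edgeR 4.0.16, HTSeq 2.0.4 and fastp 0.20.0, and the build is GRCh38. For STAR's version, the annotation release and how strand was counted, the answer is not given in the sources used here. The table had 0 columns of per-sample values that were not used.

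The test was edgeR 4.0.16 in R 4.3.3 (filterByExpr, TMM, robust quasi-likelihood fit, 4 residual degrees of freedom, Benjamini-Hochberg adjustment over all 15679 tested genes, threshold 0.05). The common biological coefficient of variation was 3.41%. CPM values are TMM-scaled, and fold changes are shMEX3A over shCtrl. Each SE was derived as the absolute log2 fold change divided by the square root of the quasi-likelihood F statistic. The 95% intervals were built from that SE with the t distribution. The 2 arms were compared over 3 libraries each. Libraries of an arm differed by more than sampling noise, so none was treated as a duplicate.

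The members and lists were chosen with earlier results of these data known. All 45 genes may be named. In each of 7 role groups, values in every library are given for the 2 genes with the largest absolute log2 fold change and the gene with the highest mean CPM. From the wider list the 3 largest called rises and falls are named, and overlapping genes and MYC are given as context. MAX, the other polymerase I subunits, the TAF1 genes and the PELP1 complex were chosen after their values were seen. So were the motif search and the E-box split.

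Alternatives were other scalings, filters and tools (DESeq2 1.42.0, limma 3.58.1 voom), the replicate block, GC and length offsets (natural splines with 5 degrees of freedom, 14480 genes), a fit without mitochondrial genes, and fits without each library. In simulated data for shMEX3A over shCtrl with 15679 genes, the edgeR test made 163 calls, 3 of them false. It found 43 of 67 genes changed 1.25-fold, 57 of 67 at 1.5-fold and 60 of 66 at 2-fold. Over 10 CPM it found 39 of 40 genes with a 1.25-fold change, all 43 with 1.5-fold and all 36 with 2-fold. Only the genes counted here were changed, up and down in equal number, and every gene had the same dispersion. In the real comparison 69.7% of genes were called, so the simulation does not measure its false calls or its scaling.

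Promoter sequences are RefSeq's (GRCh38.p14). Gene positions, exon lengths and overlaps are from GENCODE 29. The level of 1 gene of the marker list is not reported here.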

Additional observations from a re-analysis of the deposited data

How the results depend on the processing

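Between 4 and 5 of the 45 genes were called higher and between 27 and 30 lower under every other scaling, filter and tool, without the mitochondrial genes, with the replicate block, with GC and length offsets, and without each library. A 1.5-fold minimum left 1 higher and 4 lower. The summed level was 18.0% lower in shMEX3A by TMM and 21.2% lower by plain library totals. With GC and length offsets the sign turned for DDX21 (0.037), NOP58 (0.089), WDR43 (0.072), RRP12 (-0.090) and GNL3 (0.24), each called in at least 1 of the fits compared, and for GAR1 (0.088), NOP10 (0.059) and UTP4 (0.036), called in neither. The cause was not tested. Over single genes and alternatives, 720 of 752 values kept their side of the threshold, 29 of them with a turned sign in genes called in neither fit (GAR1, NOP10, UTP4, NOP14, BYSL and GNL3), 20 lost a call, 7 gained one and the 5 called genes above turned. With the offsets 27 of the 34 calls kept their direction and call. RRN3 and GNL3 were then called higher and RRP9, PES1 and RRP12 lower, so the similar totals held partly different genes. The medians with the offsets were -0.043 for genes with an E-box and -0.20 for windows without. In the wider list these medians were -0.067 with the motif and -0.078 without, closer together than in the fit with no offsets. With the replicate number as a block 5 of the 45 genes were called higher and 28 lower, and the call lost was that of DDX21 (adjusted p = 0.0743). The correlations of same-numbered libraries were -0.03, 0.08 and -0.08, and only 2 of 6 libraries were closest to those of the same number, so the numbers were not taken as pairs. At these depths the intervals of uncalled genes other than NOP10 and PPAN are narrow, and in weak genes a small change could go unseen.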
